A study of Homo sapiens with 5 samples.

Results

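The genes described here supply the amino acids from which cells make glutathione. They are SLC7A11 and SLC3A2 for cystine, SLC1A5 and SLC38A1 for glutamine, and GLS2, GLUD1, GOT1 and GLUL for the exchange between glutamine, glutamate and their relatives. The 8 genes were taken by name out of 19689 genes with a protein-coding transcript, and every peak over each gene and 10 kb to each side was read from the peak lists of 5 libraries. Peaks lay over these regions in the ACTL6A, BRG1 and NRF2 lists, 47 in all, and in neither IgG list. BRG1 had a peak at a start of 8 of the 8 genes (63.5% of all genes), ACTL6A at 6 (38.5%) and NRF2 at 5 (28.1%). SLC3A2 held the highest-ranked peaks of the 8 genes in all 3 antibody lists. At the start of SLC7A11 both remodeller subunits had a peak, with 7 and 9 fragments, ranked low among genes with a start peak. NRF2 had no peak anywhere in the SLC7A11 region.

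Cystine enters cells through an exchanger made of SLC7A11, the subunit that carries cystine in and glutamate out, and SLC3A2, the heavy chain that holds it at the membrane. Cystine is reduced to cysteine, which is joined to glutamate in the first step of glutathione synthesis. Glutamate comes largely from glutamine, which is imported and then deamidated. NRF2 (NFE2L2) is a transcription factor of the oxidative stress response that binds antioxidant response elements (AREs) together with small MAF proteins, and SLC7A11 is among its textbook targets. ATF4 is the transcription factor of the amino acid response and binds C/EBP-ATF response elements (CAREs). SLC7A11 and SLC3A2 are among its textbook targets. BRG1 (SMARCA4) is an ATPase of the SWI/SNF (BAF) chromatin remodelling complexes, and ACTL6A is an actin-related subunit of the same complexes.

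The libraries came from SNU638, an established human gastric cancer line, kept in serum-supplemented medium without any treatment that the labels name. CUT&Tag was used, an assay in which Tn5 transposase is brought to the antibody's target and cuts the DNA around it. Antibodies against ACTL6A, BRG1 and NRF2 had 1 library each. IgG, a control antibody without a chromatin target, had 2 libraries, called IgG 1 and IgG 2 here. ACTL6A, BRG1 and NRF2 had no replicate library, so no spread between samples could be given and no test was made between lists. Of 6 epithelial marker genes, 5 had a BRG1 peak at a start, all but CLDN4, 4 an ACTL6A peak and 0 an NRF2 peak. Of 6 markers of other cell types, CD68 and COL1A1 had a BRG1 and an ACTL6A peak, and CD68 alone an NRF2 peak. A BRG1 peak at a start was common, with 63.5% of all genes having one, beside 38.5% for ACTL6A and 28.1% for NRF2. The marker counts were not tested against these shares.

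The lists held 23917 ACTL6A peaks, 48793 BRG1 peaks, 9045 NRF2 peaks, 11 peaks of IgG 1 and 1746 peaks of IgG 2. Read depth is not part of the peak lists. The number of fragments at a summit, the highest point of a peak, was therefore recovered from the deposited fold enrichment and p-value, and it came out whole for at least 99.1% of the peaks of every list. The median summit in the ACTL6A list had 6 fragments, in the BRG1 list 10 and in the NRF2 list 17, and the smallest number in a peak was 3, 3 and 8. The smallest number expected at a summit was 0.182, 0.271 and 1.48. By the paper's reporting summary, the NRF2 library had the most reads of the 3 antibodies. Where no peak was called, binding was not detectable in that library, which is not the same as absent. Ranks were taken within a list by the -log10 q-value of the peak caller, with 1 as the highest, and neither fold enrichments nor q-values were compared between lists. Positions are on GRCh38 and counted from 1. Distances run from the summit to the start of the MANE Select transcript, the reference transcript of a gene, unless another start is named.

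A peak was at a transcription start site (TSS) when no more than 1 kb separated it from where a protein-coding transcript begins. By that rule 38.5% of all 19689 genes had an ACTL6A peak at a TSS, 63.5% a BRG1 peak, 28.1% an NRF2 peak, 0% a peak of IgG 1 and 0.152% a peak of IgG 2. Among the 8 supply genes ACTL6A had such a peak at 6, BRG1 at 8, NRF2 at 5 and either IgG library at 0. Over the gene and 10 kb to each side, 66.9% of all genes had an ACTL6A peak, 82.7% a BRG1 peak, 41.1% an NRF2 peak and 1.67% an IgG 2 peak, and the counts among the 8 stayed at 6, 8, 5 and 0. For every one of the 8 genes, a peak over the region therefore went with a peak at a start. With 8 genes chosen by name these counts are a description, and no share was tested against that of all genes. The nearest IgG 2 peak to any of the genes was 757388 bp away, at GLUL, and the nearest IgG 1 peak was 33750930 bp away, at GOT1, with 4 of the genes on chromosomes without an IgG 1 peak.

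**Figure D1:**
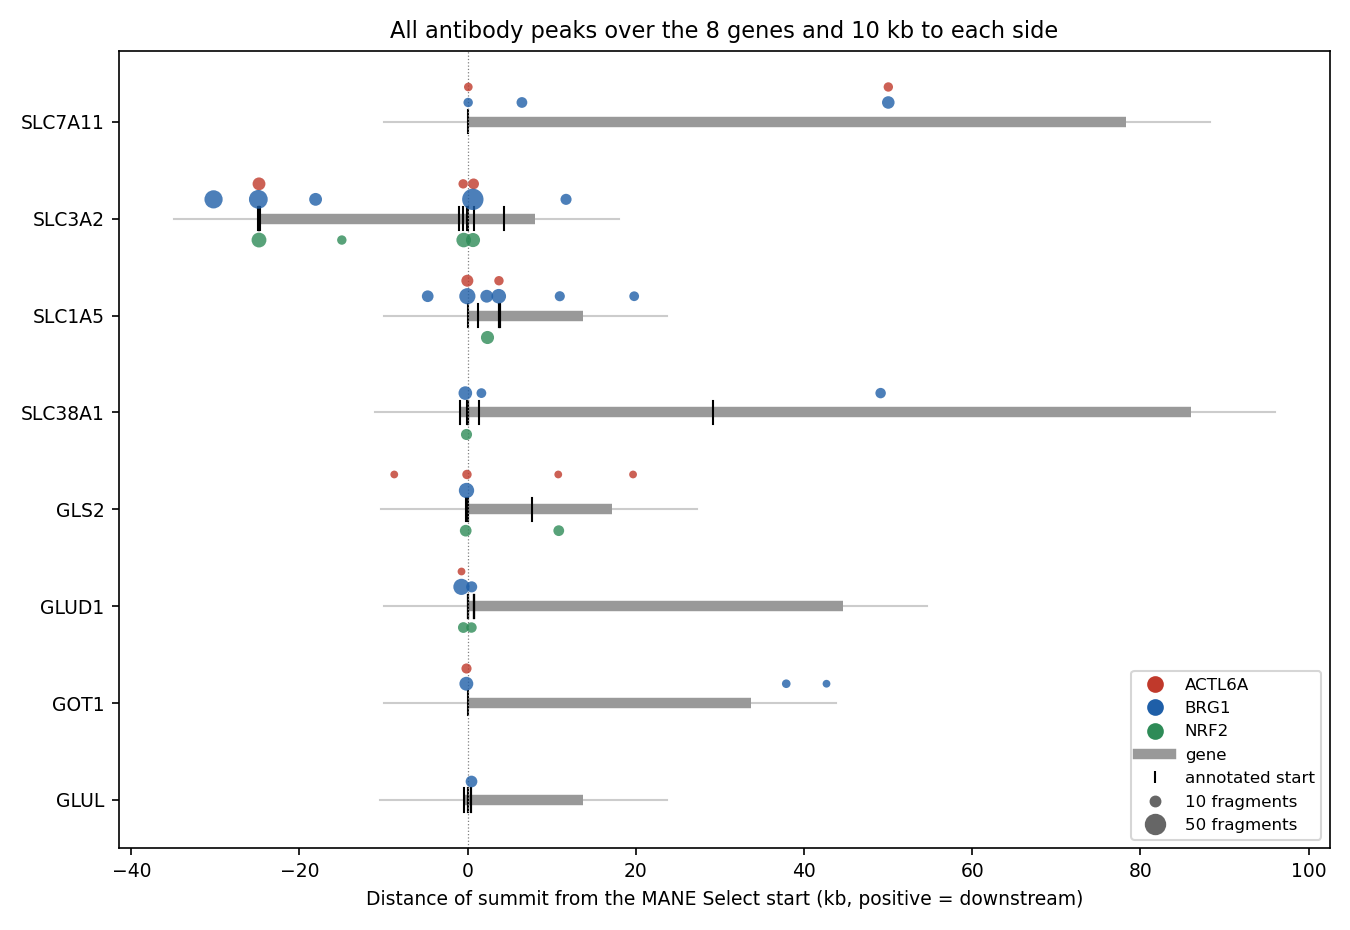
Each dot is the summit of a peak at its distance from the MANE Select start in kb (x axis), above the gene for ACTL6A and BRG1 and below it for NRF2, with its area growing with the fragments at the summit. Black ticks mark annotated starts and grey bars the genes, with thin lines for 10 kb to each side. SLC3A2 has peaks of all 3 antibodies at 2 separate places, SLC7A11 has an ACTL6A and a BRG1 dot 50.0 kb into the gene, and GLUL has a single BRG1 dot.

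SLC7A11 is a minus-strand gene of chromosome 4 (138164097 to 138242349), with 1 annotated start. Its ACTL6A peak at that start, from 138242186 to 138242452, had its summit 81 bp downstream in the untranslated part of exon 1. It held 7 fragments against 0.539 expected, a 5.20-fold enrichment with a -log10 q of 3.64, and ranked 9870, in the highest 41.3% of its list. The BRG1 peak there, from 138242196 to 138242472, had its summit 62 bp downstream and ranked 22663, in the highest 46.4%. With 9 fragments against 0.700 expected, it was the lowest-ranked of the highest BRG1 start peaks of the 8 genes. Both were low among genes with such a peak: 75.2% of genes with an ACTL6A TSS peak had a higher one, and 85.1% of genes with a BRG1 TSS peak. A minimum -log10 q of 5 removed the ACTL6A peak at this start and kept the BRG1 peak, and neither was among the highest 5000 peaks of its list. The GC content of the ACTL6A and BRG1 peaks was 47.9% and 48.0%, the lowest among the start peaks of the 8 genes, where the median of all TSS peaks was 62.4% and 66.7%.

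The peaks at the SLC7A11 start extend upstream over a pair of CAREs, searched here as TGATGNAA on both strands. The stretch from the base before the start to the end of the BRG1 peak is shown for that pair, on the gene's strand, at chr4:138242350-138242472 of GRCh38. Capitals mark the CAREs, which stand in opposite orientations and are centred 92 and 73 bp upstream of the start.
SLC7A11 upstream: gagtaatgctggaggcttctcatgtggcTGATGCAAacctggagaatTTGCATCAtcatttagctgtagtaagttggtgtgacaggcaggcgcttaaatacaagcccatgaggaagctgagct
Of all 19061 MANE Select starts, 2.46% held a CARE between 250 bp upstream and 50 bp downstream. No NRF2 peak was called here, and no ARE in the form TGACNNNGC lay in either peak.

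Inside the gene, SLC7A11 had a further place shared by both remodeller subunits, in intron 6 and 50.0 kb from the start. The ACTL6A peak, from 138192239 to 138192386, held 9 fragments against 0.224 expected and ranked 3012, in the highest 12.6%. The BRG1 peak, from 138192251 to 138192435, held 19 fragments against 0.308 expected and ranked 4596, in the highest 9.42%. In both lists the intron 6 peak ranked above the peak at the start. Their summits were 3 bp apart. A gap of 3 bp or less was seen in 9.62% of the 5590 overlapping pairs of ACTL6A and BRG1 peaks away from a TSS, where the median gap was 58 bp. The stretch covered by either peak is shown on the gene's strand at chr4:138192239-138192435, with capitals, from the left, for a CARE, an ARE and an AP-1 element (TGANTCA, the site of the FOS and JUN family). The CARE lay inside the BRG1 peak only. The ARE was 60 bp from the ACTL6A summit and 57 bp from the BRG1 summit, and no NRF2 peak overlapped it.
SLC7A11 intron 6: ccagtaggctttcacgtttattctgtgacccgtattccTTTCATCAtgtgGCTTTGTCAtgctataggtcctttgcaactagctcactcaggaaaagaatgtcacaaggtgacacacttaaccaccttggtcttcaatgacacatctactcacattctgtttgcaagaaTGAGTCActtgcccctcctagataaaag

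A BRG1 peak without an ACTL6A partner lay in intron 2 of SLC7A11, 6.46 kb from the start, from 138235646 to 138235950. It held 13 fragments against 0.840 expected and ranked 15247, in the highest 31.2%. Its inner part is shown on the gene's strand at chr4:138235686-138235836, because it carries an AP-1 element 71 bp from the summit and an ARE 194 bp from it, both in capitals in that order.
SLC7A11 intron 2: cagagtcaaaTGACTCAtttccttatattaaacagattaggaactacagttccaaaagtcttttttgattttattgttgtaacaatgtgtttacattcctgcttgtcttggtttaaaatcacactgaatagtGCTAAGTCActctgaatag
ARE letters were thus present in 2 of the 3 places with a peak in SLC7A11, and the NRF2 list had a peak at none of them. Of all BRG1 peaks away from a TSS, 14.0% held an ARE and 4.88% overlapped an NRF2 peak. BRG1 peaks with an ARE and no NRF2 peak also lay away from the starts of SLC3A2, SLC1A5 and GOT1, so this was not particular to SLC7A11.

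SLC3A2, the shared heavy chain of SLC7A11 and of several other transporters, lies on the plus strand of chromosome 11, from 62856004 to 62888880, with 12 annotated starts. The peaks fell at 2 groups of starts. The upstream group begins at 62856004 and is divergent with SNHG1, a host gene of small nucleolar RNAs whose outermost start is at 62855953. At this group the ACTL6A peak, from 62855949 to 62856249, held 20 fragments against 1.10 expected and ranked 1293, in the highest 5.41% of its list. That was the highest-ranked ACTL6A peak over the 8 genes. The BRG1 peak, from 62855908 to 62856385, held 47 fragments against 3.88 expected and ranked 3226, in the highest 6.61%. The NRF2 peak, from 62855999 to 62856379, held 28 fragments against 6.08 expected and ranked 3017, in the highest 33.4%. The NRF2 summit was 1 bp from the ACTL6A summit and 79 bp from the BRG1 summit. A peak at this place belongs to the start of SNHG1 as much as to that of SLC3A2.

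At the MANE Select start of SLC3A2, at 62880896, a BRG1 peak 1482 bp wide ran from 62880379 to 62881860. It held 62 fragments against 5.50 expected and ranked 1944, in the highest 3.98%, the highest BRG1 rank over the 8 genes. The other antibodies each had 2 narrower peaks that overlapped it, with summits on either side of the start. The NRF2 peaks held 27 and 25 fragments and ranked 2660 and 3496, in the highest 29.4% and 38.7%. The ACTL6A peaks held 9 and 13 fragments and ranked 10441 and 4283, in the highest 43.7% and 17.9%. In intron 1, downstream of the start, the summits were at 617 bp for BRG1, 637 bp for NRF2 and 707 bp for ACTL6A.

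This downstream place held the only ARE of the form TGACNNNGC found under an NRF2 peak over the 8 genes. The stretch is shown on the plus strand at chr11:62881642-62881776, of which 23 bases belong to an annotated untranslated part. Capitals mark, from the left, the ARE, whose first 7 bases are also an AP-1 element, then a CARE and a second AP-1 element. The ARE, centred 770 bp downstream of the start, lay inside the peaks of all 3 antibodies, 63 bp from the ACTL6A summit, 133 bp from the NRF2 summit and 153 bp from the BRG1 summit.
SLC3A2 intron 1: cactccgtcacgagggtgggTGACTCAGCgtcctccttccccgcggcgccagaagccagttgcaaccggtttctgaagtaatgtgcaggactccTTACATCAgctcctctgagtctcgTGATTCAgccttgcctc
The CARE lay inside the ACTL6A and BRG1 peaks and outside the NRF2 peak, which ended at 62881708.

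Beyond its starts SLC3A2 had 4 more peaks, none overlapping a peak of another list. A BRG1 peak from 62850448 to 62850803 had its summit 5324 bp upstream of the first start. It held 44 fragments against 3.23 expected and ranked 3216, in the highest 6.59%, just above the BRG1 peak at the upstream starts. BRG1 peaks also began at 62862751 and 62892533, with 20 and 14 fragments. An NRF2 peak beginning at 62865777 held 9 fragments and ranked 8977 of 9045, close to the end of its list.

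**Figure D2:**
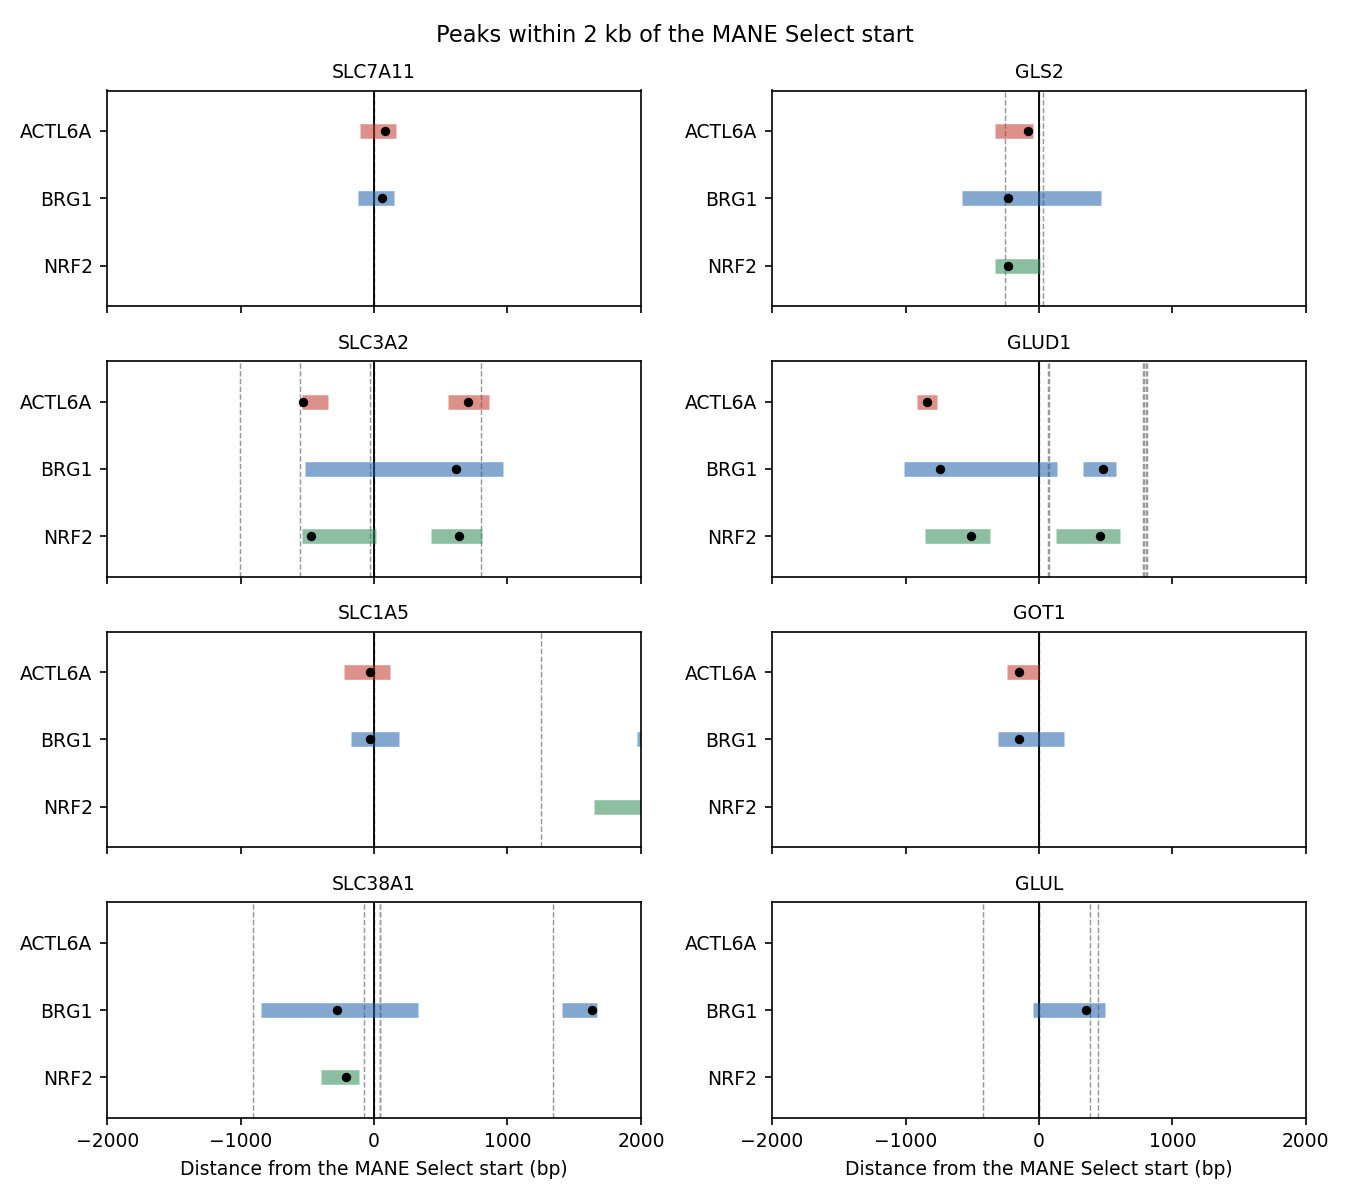
Bars show each peak and black dots its summit, by distance in bp from the MANE Select start (solid line), with other annotated starts of the gene as dashed lines. The upstream starts of SLC3A2, 24.9 kb away, are outside the window. ACTL6A and BRG1 bars overlap at 6 genes, NRF2 has no bar at SLC7A11, GOT1 and GLUL, and at SLC1A5 its bar begins over 1 kb into the gene.

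SLC1A5, a sodium-dependent importer of glutamine and other neutral amino acids, is a minus-strand gene of chromosome 19 (46774883 to 46788594). At its MANE Select start the ACTL6A and BRG1 summits were 1 bp apart, 34 and 33 bp upstream. The ACTL6A peak, from 46788474 to 46788822, held 17 fragments against 1.36 expected and ranked 2680, in the highest 11.2%. The BRG1 peak, from 46788406 to 46788763, held 34 fragments against 4.28 expected and ranked 8461, in the highest 17.3%. The annotated start of a lncRNA, ENSG00000275719, was 659 and 591 bp from these peaks. The NRF2 list had no peak at this start. Its only peak over SLC1A5 lay in intron 1, from 46786170 to 46786944, with the summit 2.30 kb downstream of the start. It held 21 fragments against 5.11 expected, ranked 5396, in the highest 59.7%, and overlapped a BRG1 peak with 20 fragments whose summit was 31 bp away. It counted as a TSS peak because its edge was 398 bp from the start of an alternative transcript, ENST00000412532, while its summit was 1050 bp from that start.

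A second pair of ACTL6A and BRG1 peaks lay in intron 1 of SLC1A5 at the starts of 4 alternative transcripts between 46784786 and 46784905. The ACTL6A peak there held 9 fragments and ranked 12260, in the highest 51.3%, and the BRG1 peak held 27 fragments and ranked 12747, in the highest 26.1%. The stretch is shown for its CARE, in capitals, which was 38 bp from the ACTL6A summit and 15 bp from the BRG1 summit, on the gene's strand at chr19:46784890-46784958, of which 16 bases belong to an annotated untranslated part.
SLC1A5 intron 1: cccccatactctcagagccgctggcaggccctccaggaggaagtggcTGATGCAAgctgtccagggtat
The other 3 BRG1 peaks over SLC1A5 overlapped no other list and held between 10 and 16 fragments. One of these lay 4.75 kb upstream, one in intron 5 and one downstream of the gene.

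SLC38A1, another sodium-coupled importer of glutamine, is a minus-strand gene of chromosome 12 (46183063 to 46270017). It had no ACTL6A peak. At its start a BRG1 peak 1177 bp wide, from 46268715 to 46269891, held 23 fragments against 1.83 expected and ranked 9437, in the highest 19.3%. An NRF2 peak from 46269157 to 46269441 lay wholly inside it, with 14 fragments against 3.00 expected, and ranked 7113, in the highest 78.6%. The summits were 275 bp upstream for BRG1 and 210 bp upstream for NRF2. SLC38A1 was the only one of the 8 genes with an ARE between 250 bp upstream and 50 bp downstream of its MANE Select start, which 14.1% of all 19061 starts had. The ARE, centred 72 bp upstream, lay inside the BRG1 peak and outside the NRF2 peak. The stretch is shown on the gene's strand at chr12:46269106-46269197, with the ARE in capitals, and 25 of its bases belong to an annotated untranslated part.
SLC38A1 upstream: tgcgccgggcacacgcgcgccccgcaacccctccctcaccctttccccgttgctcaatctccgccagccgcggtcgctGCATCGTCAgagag
Further BRG1 peaks lay 1.64 kb and 49.1 kb downstream, with 10 and 12 fragments, and neither overlapped another list.

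GLS2, a mitochondrial glutaminase that turns glutamine into glutamate, is a minus-strand gene of chromosome 12 (56470944 to 56488414). All 3 antibodies had a peak at its start. The BRG1 peak, 1037 bp wide from 56487698 to 56488734, held 30 fragments against 1.88 expected and ranked 5429, in the highest 11.1%. The NRF2 peak, from 56488150 to 56488488, held 16 fragments against 2.34 expected and ranked 3970, in the highest 43.9%. These summits fell on the same base, 229 bp upstream of the MANE Select start and 24 bp from another GLS2 start. The ACTL6A peak, from 56488202 to 56488488, held 9 fragments against 0.494 expected and ranked 5197, in the highest 21.7%, with its summit 80 bp upstream. The annotated start of ENSG00000285528, a gene entry that runs on the same strand across GLS2, lies at 56488170, and these peaks cannot be assigned to one or the other. None of the 3 held an ARE or a CARE.

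In intron 7 of GLS2 an NRF2 peak with 13 fragments, ranked 6597, overlapped an ACTL6A peak with 5 fragments, ranked 14971, and BRG1 had no peak there. It was the only place over the 8 genes where NRF2 and ACTL6A peaks overlapped without BRG1. Another ACTL6A peak with 5 fragments, from 56468444 to 56468608, lay downstream of GLS2 over the start of SPRYD4 and near a start of MIP, the gene of a lens aquaporin. The remaining ACTL6A peak lay 8.73 kb upstream, also with 5 fragments.

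GLUD1, the mitochondrial glutamate dehydrogenase that links glutamate and α-ketoglutarate, is a minus-strand gene of chromosome 10 (87050202 to 87094843), head to head with SHLD2, a subunit of the shieldin complex in DNA repair. The outermost start of SHLD2, at 87094161, lies inside GLUD1. Upstream of the GLUD1 start a BRG1 peak from 87094704 to 87095855 held 34 fragments against 2.36 expected and ranked 4834, in the highest 9.91%, with its summit 739 bp upstream. An NRF2 peak within it held 13 fragments and ranked 6174, in the highest 68.3%, with its summit 509 bp upstream. An ACTL6A peak within it held 5 fragments against 0.389 expected and ranked 15958, in the highest 66.7%, with its summit 842 bp upstream. That ACTL6A peak was 761 bp from the nearest GLUD1 start and 398 bp from the nearest SHLD2 start. Over exon 1 a second pair of BRG1 and NRF2 peaks, 479 and 457 bp downstream, held 14 and 12 fragments. No ARE or CARE lay in any of the 5 peaks.

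GOT1, the cytosolic aspartate aminotransferase, is a minus-strand gene of chromosome 10 (99396870 to 99430624), divergent from the lncRNA GOT1-DT. At its start the ACTL6A and BRG1 summits fell on the same base, 153 bp upstream. The ACTL6A peak, from 99430620 to 99430866, held 11 fragments against 0.524 expected and ranked 3449, in the highest 14.4%. The BRG1 peak, from 99430436 to 99430934, held 24 fragments against 1.04 expected and ranked 5761, in the highest 11.8%. NRF2 had no peak over the gene. The upstream stretch under the ACTL6A peak is shown on the gene's strand at chr10:99430625-99430866, for its CARE in capitals, 42 bp from both summits and centred 195 bp upstream of the start.
GOT1 upstream: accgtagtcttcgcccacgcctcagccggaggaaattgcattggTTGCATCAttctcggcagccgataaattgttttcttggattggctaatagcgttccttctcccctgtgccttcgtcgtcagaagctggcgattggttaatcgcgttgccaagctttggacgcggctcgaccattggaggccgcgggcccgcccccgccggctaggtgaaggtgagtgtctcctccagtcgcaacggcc
GOT1 and SLC7A11 were the 2 of the 8 genes with a CARE between 250 bp upstream and 50 bp downstream of the MANE Select start. The BRG1 peak also held an ARE, 310 bp from its summit. Downstream of the gene, BRG1 peaks with 7 and 5 fragments ranked 28848 and 36653, in the lower part of the list.

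GLUL, the glutamine synthetase that makes glutamine from glutamate and ammonia, is a minus-strand gene of chromosome 1 (182378098 to 182392206). It had a single peak in its region. This BRG1 peak, from 182391294 to 182391835, held 16 fragments against 0.896 expected and ranked 11460, in the highest 23.5%, with its summit 351 bp downstream of the MANE Select start and 35 bp from another start. GLUL was the only one of the 8 genes with a BRG1 peak alone, and its peak held neither ARE nor CARE. GENCODE lists 4 pseudogenes named for GLUL and 3 for SHLD2, beside copies of GLUD1. By the paper's methods only uniquely mapped reads were kept, and how the copies bear on the peaks at GLUL and GLUD1 was not tested.

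Set side by side, the 8 genes fell into 4 combinations of antibodies at their starts. SLC3A2, SLC1A5, GLS2 and GLUD1 had all 3 antibodies, as did 22.1% of all genes. SLC7A11 and GOT1 had ACTL6A and BRG1 without NRF2 (14.7% of all genes), SLC38A1 had BRG1 and NRF2 without ACTL6A (5.60%), and GLUL had BRG1 alone (21.1%). None of the 8 was among the 34.4% of genes without any of the 3. The ACTL6A peak at a start overlapped a BRG1 peak by at least 1 bp at 6 of the 8 genes (34.7% of all genes). The NRF2 peak at a start overlapped an ACTL6A peak at 3 (20.7% of all genes), namely SLC3A2, GLS2 and GLUD1, and a BRG1 peak at 5 (27% of all genes). At SLC1A5 all 3 antibodies counted as present, but NRF2 and ACTL6A lay at different starts.

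Counted by peak, 9 of the 9 ACTL6A peaks at a start of the 8 genes overlapped a BRG1 peak, beside 87.1% of all ACTL6A peaks at a TSS. Of the 3 ACTL6A peaks away from any TSS, 1 did, the one in intron 6 of SLC7A11, beside 33.5% of all ACTL6A peaks away from a TSS. The ACTL6A peak at the start of SPRYD4 overlapped no BRG1 peak. Of the 8 NRF2 peaks at a start, 8 overlapped a BRG1 peak and 5 an ACTL6A peak, beside 94.9% and 70.0% of all NRF2 peaks at a TSS. Of the 13 BRG1 peaks at a start 8 overlapped an ACTL6A peak, beside 41.1% of all BRG1 peaks at a TSS. Peaks of 1 gene are not independent of each other, so these are counts and not a test.

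The 8 genes covered a wide range of ranks. Among genes with a peak at a TSS, the share with a higher one than the gene in question ran from 15.1% (SLC3A2) to 89.6% (GLUD1) for ACTL6A, with a median of 44.2% over 6 genes. For BRG1 it ran from 11.9% (SLC3A2) to 85.1% (SLC7A11), with a median of 40.4% over 8 genes. For NRF2 it ran from 33.9% (SLC3A2) to 87.3% (SLC38A1), with a median of 70.7% over 5 genes, and 1 of the 5 was in the higher part of the genes with such a peak. The order was not the same in every list. GLUD1 came next after SLC3A2 for BRG1 and last of 6 genes for ACTL6A, on a peak of 5 fragments.

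**Figure D3:**
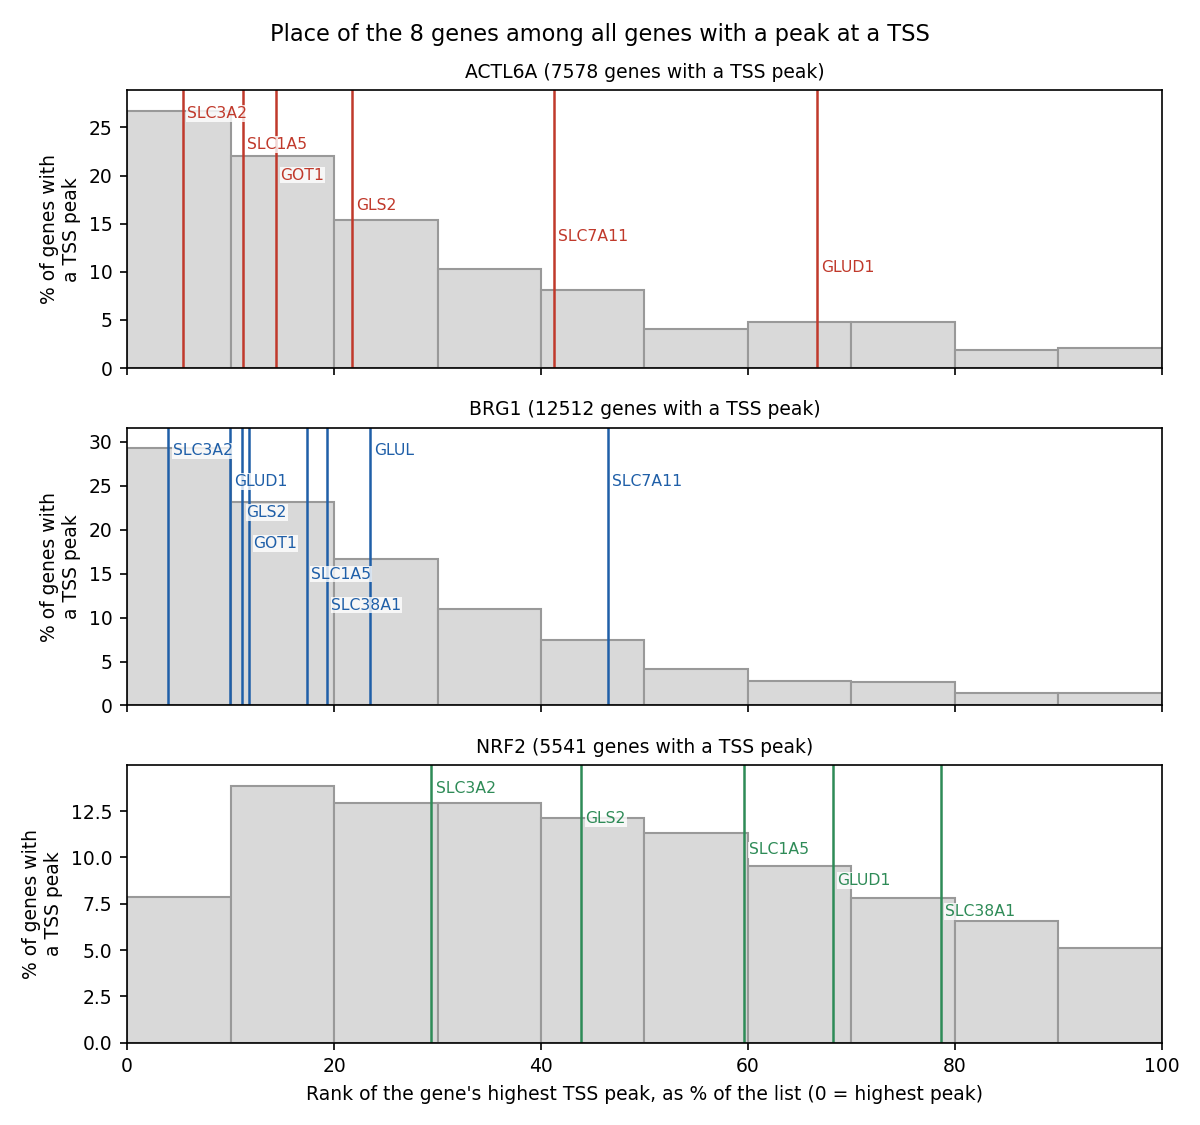
Grey bars show where the highest TSS peak of every gene fell within its list, as the percent of genes (y axis) per step of 10% of the list (x axis, 0 is the highest-ranked peak), and coloured lines mark the supply genes. In the ACTL6A and BRG1 panels most lines stand in the highest 25% of the list. The medians of all genes with a TSS peak, 20.7% and 18.8%, stand there too. SLC7A11 is at 41.3% and 46.4%, and GLUD1 is at 66.7% for ACTL6A. In the NRF2 panel the lines run from 29.4% to 78.6%, and the median of all genes with a TSS peak is 41.8%.

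The genes with ranks most like those of SLC7A11, out of 2897 others with ACTL6A and BRG1 but not NRF2 at a start, were GRAMD1B, DECR1 and PARP10. Their absolute differences from SLC7A11 in within-list rank, summed over both lists, were 1.93, 2.16 and 2.38 percentile points. Likeness here is of 2 ranks only.

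Over all 47 peaks, the CARE was found in 4 of 13 ACTL6A peaks, 6 of 24 BRG1 peaks and 0 of 10 NRF2 peaks, where 2.07%, 2.17% and 3.21% of all peaks of those lists held one. Since peaks of different antibodies overlap, these came from 7 separate matches in 5 genes (SLC7A11, SLC3A2, SLC1A5, SLC38A1 and GOT1). The CARE was chosen for the search because SLC7A11 and SLC3A2 are textbook ATF4 targets, so its counts here are no test. The ARE was found in 2 of 13 ACTL6A peaks, 8 of 24 BRG1 peaks and 1 of 10 NRF2 peaks, beside 11.9%, 16.1% and 22.7% of all peaks. These came from 9 separate matches in the same 5 genes. Within 200 bp around the summit, 9.88% of all ACTL6A peaks, 11.5% of all BRG1 peaks and 9.66% of all NRF2 peaks held an ARE. The median peak of those lists was 206, 232 and 474 bp wide. The AP-1 element was found in 2, 6 and 3 peaks, beside 8.80%, 15.1% and 10.1%. GLS2 and GLUL had none of the 3 elements in any peak, and GLUD1 had an AP-1 element only. A match is a run of letters and not a measured site, and wider peaks have more room for one.

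Of 19 other genes of cystine, glutamine and glutamate supply, 9 had an ACTL6A peak at a start, 18 a BRG1 peak, 9 an NRF2 peak and 0 an IgG peak, beside 38.5%, 63.5% and 28.1% of all genes for the 3 antibodies. All 3 antibodies were at a start of 6 of them, beside 22.1% of all genes. Among them were ASNS, which uses glutamine to make asparagine, CTH, which makes cysteine from cystathionine, and PPAT, which opens purine synthesis with glutamine. The rest were ALDH18A1, GPT2 and OAT, enzymes of proline, alanine and ornithine metabolism. SLC1A3, a glutamate importer, had none of the 3.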

How the data were processed

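Peak lists of 5 CUT&Tag libraries were analysed. The authors cleaned paired-end reads with their own scripts and fastp 0.23.0, mapped them uniquely to hg38 with BWA and called peaks in each library with MACS2. The control given to the caller is not given in the sources used here. In the deposited lists the score is the whole part of 10 times the -log10 q-value for all but 8 of 83512 peaks. The deposited fold enrichment is a ratio at the summit with a pseudocount of 1. The deposited -log10 p and q come from the caller. The peak names of IgG 1 carry the name BRG1, so that library is taken to go with BRG1.

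Samples were grouped by antibody from their labels. Genes and starts came from GENCODE release 44. The fragments at a summit were the whole number that gave both the fold and, to 0.001 in -log10, the Poisson p-value, with no second solution for any peak over the 8 genes. Sequences and motifs were read from GRCh38 on both strands, and the AP-1 element was added after the data had been seen. Named peaks were, for each gene, the highest TSS peak per list, peaks in the highest 10% of a list and peaks overlapping another list. The BRG1 peak in intron 2 of SLC7A11 met none of these rules and was described for its ARE and AP-1 letters. AREs in BRG1 peaks away from the starts of SLC3A2, SLC1A5 and GOT1 were counted but not shown. Other peaks are given briefly by place or fragments. The genes and gene lists were chosen with earlier results of these data known. With 1 library per antibody no test was made, so alternatives changed only the peaks kept, the TSS distance, the flank, the overlap and the motif. Routines were tested on simulated data. Tools were samtools 1.23.1 and, under Python 3.11.15, pysam 0.24.0, pandas 2.3.3, matplotlib 3.10.9, SciPy 1.17.1 and NumPy 2.4.6. Expression data of the study were not used here.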

Additional observations from a re-analysis of the deposited data

How the results depend on the processing

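Of 62 alternatives over 13 results, 40 left the count within 1.5 times of the reported one. With only the highest 5000 peaks of each list, the genes with a peak at a start fell to 3 for ACTL6A (SLC3A2, SLC1A5 and GOT1), 2 for BRG1 (SLC3A2 and GLUD1) and 2 for NRF2 (SLC3A2 and GLS2), the peaks over the regions to 5, 5 and 4, and each of the 3 overlaps at a start to 1 gene. With a -log10 q of at least 5, the NRF2 genes were 2, the ACTL6A and NRF2 region peaks 6 and 4, and the NRF2 overlaps with BRG1 2, while BRG1 stayed at the starts of all 8 genes and ACTL6A at 4, without SLC7A11 and GLUD1. Among the highest 5000 peaks SLC7A11 had no start peak in any list. With 50 kb to each side, the regions held 23 ACTL6A, 45 BRG1 and 16 NRF2 peaks. An overlap of 50% of both peaks left 3 genes for ACTL6A on BRG1 and 3 for NRF2 on BRG1. The ARE was in 7 peaks within 200 bp around the summit and in 29 as TGANNNNGC, and the CARE in 6 and, as TGATGNAAT, in 1. With MANE Select starts or summits alone NRF2 had 4 genes, without SLC1A5. Each change follows from how the alternative was made, by keeping fewer peaks, a wider region or other letters. The counts of 0 for IgG could not fall. Leaving out peaks that overlap an IgG peak could change nothing, because no peak over the 8 genes overlapped one. These alternatives are among the 40 and say nothing about stability.

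No paired analysis was possible because the 3 antibodies have a single library apiece and no test was made. Without replicates, no count can be set against an error, and the calls on 5 to 9 fragments, among them the SLC7A11 and GLUD1 start peaks of ACTL6A, rest on few fragments. A peak at a start shared with another gene cannot be given to one of them, which holds for start peaks at SLC3A2, SLC1A5, GLS2, GLUD1 and GOT1.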

Other observations

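Between 10 and 50 kb from the 8 genes lay 37 further peaks of the 3 antibodies, of which 18 were within 1 kb of the start of another protein-coding gene. Distances from the supply genes in this part run from the edge of a peak to the nearest end of the gene. The highest-ranked stood 23.2 kb upstream of SLC3A2 over the start of STX5, a SNARE protein of the Golgi. There the NRF2 peak, from 62831314 to 62832770, held 50 fragments and ranked 583, in the highest 6.45% of its list, above every NRF2 peak over the supply genes. The BRG1 peak at that place held 65 fragments and ranked 1317, in the highest 2.70%, and the ACTL6A peak held 17 fragments and ranked 3055, in the highest 12.8%. All 3 antibodies also had a peak at the start of TIMELESS, a replication fork protein, 21.5 kb from GLS2, with 27 fragments for BRG1, 18 for NRF2 and 9 for ACTL6A. Nearer to SLC3A2, between 13.8 and 16.8 kb upstream, all 3 had peaks within 1 kb of the start of WDR74. The ACTL6A peaks there held 25, 22 and 15 fragments, the BRG1 peaks 30 and 20, and the NRF2 peaks 22 each.

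Away from any protein-coding start, an NRF2 peak 11.1 kb upstream of SLC38A1, from 46281138 to 46281635, held 16 fragments and ranked 3237, in the highest 35.8%. It ranked above the NRF2 peak at the SLC38A1 start, which had rank 7113, and a BRG1 peak of 4 fragments lay inside it. Beside SLC7A11 no antibody had a peak between 10 and 50 kb.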
